A study of Mus musculus with 20 samples.

Results

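The knockout of Aire was described here in BALB mice, as the comparison of 4 Aire knockout (KO) mice with 4 Aire wild-type (WT) mice. Membership followed the sample titles, which assign 8 of the 20 arrays of the series to these groups. Each array holds the RNA of medullary thymic epithelial cells from the thymus of 1 male mouse aged 3 to 4.5 weeks. The cells were sorted by flow cytometry as negative for the leukocyte marker CD45, positive for the epithelial antibody G8.8, with intermediate Ly51 and high MHC class II. For comparison the series holds 3 KO and 3 WT mice of the B6 background and 3 KO and 3 WT mice of the NOD background, prepared in the same way. The labels do not describe the knockout allele, litters or the number of cells sorted, and the p-values below measure the spread between mice of a group.

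Aire is a transcriptional regulator of medullary thymic epithelium. It lets these cells transcribe genes that are otherwise restricted to peripheral organs, such as hormones, digestive enzymes and secreted proteins of glands. The displayed fragments of these proteins delete or divert T cells that would attack the organs, and people or mice without a working Aire develop autoimmunity against several of them. Each cell carries only some of these transcripts at a time, so a bulk measurement averages over many cells.

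All levels are log2 intensities of Affymetrix probe sets, and a difference of 1 on this scale is a fold of 2. Intensities of different probe sets cannot be set against each other. Array medians of the series lay between 86.3 and 90.9 intensity units, and the number of mice limits the precision. The labelled strain was checked with H2-Ea, a class II chain gene that B6 and NOD mice are known not to transcribe. Its mean level was 12.33 in BALB KO mice and 11.87 in BALB WT mice, against 9.20 to 9.29 in the groups of the other strains. The Aire probe set itself read 11.08, 11.20, 11.01 and 10.53 in KO mice and 10.48, 10.53, 10.71 and 9.31 in WT mice. WT mouse 4 was the lowest, the other mice overlapped in part, and the difference of 0.70 ± 0.22 (SE) did not pass (adjusted p = 0.0734). With same-numbered KO and WT mice taken as pairs it passed (adjusted p = 0.00148), as it did without KO mouse 4 (adjusted p = 0.0394) or WT mouse 3 (adjusted p = 0.0372). The sources used here do not say whether the probes lie inside the deletion, so this level does not check the genotype labels.

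Large changes in BALB KO mice were mostly falls. Of 45037 probe sets, 1920 were lower in KO mice (4.26%) and 1159 were higher (2.57%) at an adjusted p under 0.05, 6.84% in all. Changes of at least 2-fold were found for 828 lower probe sets (1.84%) and 165 higher ones (0.366%), 993 in all (2.2%), so that 83.4% of the large changes were falls. At 8-fold or more, 63 probe sets were lower and 0 were higher by limma, while 8554 probe sets passed an unadjusted p under 0.05 in either direction. With same-numbered mice as a block the count of called probe sets was 7787, of which 3896 were lower and 3891 higher, and it held all 3079 called without the block. Fewer cells transcribing a gene and less RNA of that gene per cell cannot be told apart in these sorted pools.

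Genes were followed through 1 probe set each, which gave 18193 genes, of which 1360 were lower (7.48%) and 525 higher (2.89%), at least 2-fold for 578 (3.18%) and 96 (0.528%). The largest fall was that of Hbb-y, the embryonic beta-like globin of the yolk sac. It read 3.78, 3.89, 3.54 and 3.61 in KO mice, against 9.80, 10.11, 10.07 and 8.90 in WT mice. All 4 KO mice lay near the bottom of the scale, whose lowest 5% of values in BALB mice ended at 3.78, and the groups were far apart. The difference was -6.01 ± 0.31 (SE, adjusted p = 1.63e-09). Crh, the hypothalamic hormone that starts the stress axis, followed with 3.73, 4.07, 3.78 and 3.68 in KO mice and 9.16, 8.31, 9.35 and 8.70 in WT mice, a difference of -5.06 ± 0.30. Its KO values were again at the bottom of the scale, so that both folds may be understated. Nts, which encodes the gut and brain peptide neurotensin, read 6.29, 6.80, 6.55 and 6.38 in KO mice and 11.10, 11.31, 10.82 and 10.82 in WT mice. KO mice kept a level well above the lowest values here, and the difference of -4.51 ± 0.20 was among the most even across mice.

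Other leading falls came from many organs. Mucl2, a mucin-like gene of secretory glands, read 4.21, 6.16, 4.57 and 4.65 in KO mice and 10.49, 10.46, 9.05 and 9.62 in WT mice, with KO mouse 2 highest among the KO mice. Its chromosomal neighbour Mucl1 read 4.84, 5.32, 4.70 and 4.60 in KO mice and 9.19, 9.37, 7.65 and 7.72 in WT mice. Both were lower in every KO mouse, by -5.01 ± 0.37 and -3.62 ± 0.34. Gpr50, an orphan receptor related to the melatonin receptors, read 4.59, 5.27, 4.93 and 4.60 in KO mice and 9.99, 9.74, 9.51 and 9.23 in WT mice. Umod, the main protein of normal urine, read 5.90, 5.81, 5.84 and 6.51 in KO mice and 10.23, 10.10, 10.55 and 9.56 in WT mice. No KO mouse reached a WT mouse for either gene, as the rule for naming required. KO mouse 4 stood above the other KO mice for Umod. The remaining members of the 14 largest falls were Hoatz (-4.36 ± 0.27), needed for motile cilia and flagella, Lefty2 (-3.88 ± 0.32), a secreted inhibitor of Nodal signalling, Asb4 (-3.88 ± 0.26), Tm4sf1 (-3.86 ± 0.26), the cartilage matrix gene Cilp (-3.73 ± 0.21), BC080696 (-3.69 ± 0.24) and Il31 (-3.69 ± 0.23), a T cell cytokine that causes itch. Adjusted p-values of the 14 lay between 3.89e-10 and 1.46e-06.

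Rises were smaller, and none reached 3 on the log2 scale. The 10 largest had no overlap between genotypes, as the rule for naming them required, and 6.31% of all genes rose without overlap. Tafa1, a small secreted chemokine-like protein of the nervous system, read 9.46, 9.37, 9.44 and 9.39 in KO mice and 7.20, 7.23, 7.40 and 7.15 in WT mice. The KO mice lay close together, well above the WT mice. Its difference was 2.17 ± 0.23 (adjusted p = 6.15e-06). Ctla4, known as the inhibitory receptor of T cells that binds CD80 and CD86, read 9.10, 8.87, 8.92 and 9.15 in KO mice and 6.95, 6.86, 7.19 and 6.87 in WT mice, a difference of 2.04 ± 0.17. Beside it, of 12 measured thymocyte markers 0 were higher and 1, Cd3g, was lower (-1.06 ± 0.17), with 2 lower under the pairs as a block. The mean level of these 12 lay between 6.46 and 6.79 in KO mice and between 6.61 and 7.001 in WT mice. Dcn and Epyc encode the small leucine-rich proteoglycans decorin and epiphycan. Dcn read 11.22, 11.31, 11.24 and 11.47 in KO mice and 9.33, 9.25, 9.26 and 9.54 in WT mice, a difference of 1.96 ± 0.19, with no overlap.

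Among the further rises, Epyc read 10.61, 10.65, 9.99 and 9.81 in KO mice and 8.97, 9.26, 7.88 and 7.41 in WT mice, with mice 1 and 2 above mice 3 and 4 in both genotypes and a difference of 1.88 ± 0.41. Dnmt3l, a cofactor of the enzymes that methylate DNA in germ cells, read 9.42, 9.76, 9.27 and 9.30 in KO mice and 8.01, 7.88, 7.74 and 6.96 in WT mice, a difference of 1.79 ± 0.26. Dnmt3b, one of those enzymes, was lower by -0.53 ± 0.16, just past the threshold (adjusted p = 0.0499), and its call was lost whichever KO mouse was left out (adjusted p 0.0607 to 0.132). The other leading rises were Maoa (1.76 ± 0.20), which breaks down monoamine transmitters, Farp2 (1.91 ± 0.25), an exchange factor for small GTPases, Ptchd4 (1.80 ± 0.26), B230209E15Rik (2.13 ± 0.17) and 1810006J02Rik (1.97 ± 0.26). For all 24 leading genes the direction and the call were the same in every alternative run that gave them a value. No such run swapped the probe set. Other probe sets of Hbb-y (-6.17 and -1.35), Umod, Asb4, Ptchd4 and Maoa passed in the same direction. Those of Gpr50 (-0.35, adjusted p = 0.261), Farp2 (0.29, adjusted p = 0.514) and Dcn (0.30, adjusted p = 0.097) did not pass. For Tm4sf1 another probe set passed (-0.85) and a further one did not (0.15, adjusted p = 0.536).

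**Figure D1:**
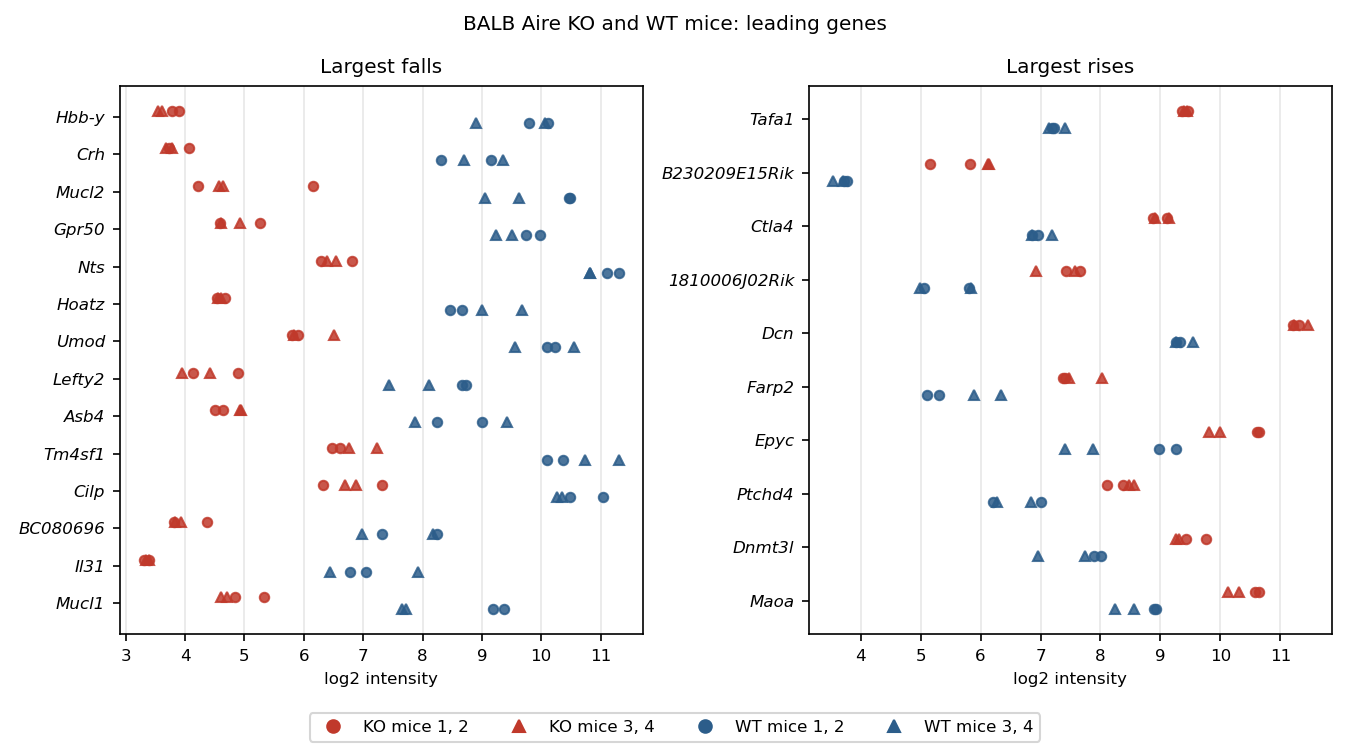
Log2 intensity of the 14 largest falls and the 10 largest rises in each BALB mouse. Red points are KO mice and blue points WT mice, with circles for mice 1 and 2 and triangles for mice 3 and 4. In every gene the 4 KO mice lie beyond the 4 WT mice, as the rule for naming required.

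Gene lists for organs, thymic cells and pathways were then counted against the share over all genes. With same-numbered mice as a block those shares were 13.9% lower and 8.59% higher, and counts with this block are given where they move the number called by over 1.5 times. Many genes of secreted proteins of the digestive tract and its glands were lower. In the exocrine pancreas list 13 of 18 measured genes were lower and 0 higher, with a median difference of -1.11 against -0.0011 over all genes. Zg16, a lectin of secretory granules, read 6.80, 6.85, 6.32 and 6.93 in KO mice and 9.25, 9.54, 9.56 and 9.12 in WT mice. Reg3b, an antibacterial lectin, read 5.55, 6.09, 6.73 and 6.61 in KO mice and 8.59, 8.54, 9.70 and 9.08 in WT mice. Neither gene overlapped between genotypes, and the protease precursor genes Ctrb1 (-2.20 ± 0.29) and Prss2 (-2.02 ± 0.47) were lower too, the second with WT mouse 3 far above the rest and with no call in the BALB arrays alone (adjusted p = 0.103). For the stomach 5 of 11 genes were lower and 0 higher (median -0.34), led by the gastrokines Gkn2 (-1.99 ± 0.21) and Gkn1 (-1.42 ± 0.14). Among salivary and lacrimal gland genes 8 of 14 were lower and 0 higher (median -1.01), led by the 2 Mucl genes.

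Plasma proteins made by the liver were split. Of 24 liver genes 13 were lower and 1 higher (median -1.17). The fibrinogen chain genes fell together, Fgb with 4.65, 5.13, 4.77 and 4.49 in KO mice and 9.09, 8.98, 7.84 and 7.55 in WT mice. Fgg read 6.67, 6.96, 6.50 and 6.28 in KO mice and 10.48, 10.48, 10.19 and 9.40 in WT mice. The groups were separate in both, by -3.60 ± 0.26 and -3.53 ± 0.22, and within the WT group mice 3 and 4 were lower for Fgb. Afp, the fetal counterpart of albumin, differed by -3.44 ± 0.34, and the haemoglobin scavenger Hp by -2.75 ± 0.29. F2, the gene of prothrombin, was the 1 that rose (0.41 ± 0.11), and the transport protein genes Ttr (0.08 ± 0.37) and Ahsg (0.02 ± 0.11) did not pass.

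Hormones gave the next group. Of 17 islet hormone and granule genes 9 were lower and 1 higher (median -0.65). Ppy, pancreatic polypeptide, read 5.30, 5.06, 5.22 and 4.98 in KO mice and 8.60, 8.54, 8.60 and 8.04 in WT mice. Iapp, the amyloid peptide released with insulin, read 8.97, 10.02, 9.02 and 10.74 in KO mice and 12.06, 11.98, 12.03 and 12.74 in WT mice. For Iapp mice 4 of both genotypes were the highest of their group, and the difference was -2.52 ± 0.35. Ins2, an insulin gene and a main autoantigen of type 1 diabetes, was lower by -1.14 ± 0.16 (adjusted p = 0.000127). The gene that rose was Chga, a protein of secretory granules, with 9.98, 10.21, 10.01 and 9.94 in KO mice and 9.09, 9.14, 9.22 and 9.10 in WT mice (0.90 ± 0.11). Of 21 neuropeptide and hypothalamic hormone genes 14 were lower and 0 higher (median -1.0), and all 21 had a negative difference. Besides Crh and Nts these included the tachykinin genes Tac2 (-3.20 ± 0.28) and Tac1 (-3.09 ± 0.24). Pituitary, thyroid and parathyroid genes were mostly not called, with 2 of 11 lower and 1 higher (median 0.05). The 2 were Cga, the chain shared by several pituitary hormones (-2.42 ± 0.21), and Pth, parathyroid hormone (-2.20 ± 0.27).

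Structural and surface tissues were uneven. Among brain antigens 5 of 15 genes were lower and 0 higher (median -0.03), namely Gpr50, the neurofilament genes Nefl (-1.52 ± 0.23), Nefm (-1.40 ± 0.31) and Nefh (-0.87 ± 0.17), and Gap43. Cartilage and bone matrix genes numbered 7 lower and 1 higher, Epyc, of 15 (median -0.18). Striated muscle genes numbered 8 lower of 22 and 1 higher (median -0.28), with Actc1, cardiac actin, at -1.57 ± 0.13 and Pln, the inhibitor of the muscle calcium pump, at 1.09 ± 0.21. Of 11 lung genes 6 were lower and 1 higher (median -0.88), with the surfactant genes Sftpd (-1.39 ± 0.19) and Sftpc (-1.37 ± 0.13). Kidney counts were 4 lower and 0 higher of 11 (median -0.26), the 4 being Umod, the salt transporter genes Slc12a1 (-0.83 ± 0.20) and Slc12a3 (-0.38 ± 0.11), and the receptor gene Lrp2 (-0.78 ± 0.17). The count was 2 without WT mouse 1 or 2 or KO mouse 2, and with the BALB arrays alone Umod was the 1 called. Milk proteins had 3 lower and 0 higher of 10 (median -0.18), led by the casein gene Csn1s2a (-3.40 ± 0.31), and 3 lower and 2 higher with the block. Embryonic and fetal globins had 3 lower and 0 higher of 5 (median -1.16). In the intestine list 8 of 21 were lower and 2 higher (median -0.23), led by Clca1 (-2.56 ± 0.40) and the goblet cell genes Tff3 (-2.16 ± 0.20) and Muc2 (-1.95 ± 0.22), and 5 were lower without WT mouse 3. Striated muscle had 5 lower without WT mouse 2. With the mean of all probe sets of a gene in place of the brightest, the median was -0.12 for brain, -0.50 for cartilage and bone, -0.15 for kidney and -0.05 for intestine.

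Other tissue lists held few called genes. Male accessory glands had 2 lower and 0 higher of 14 (median -0.12), with the seminal vesicle gene Svs4 at -3.43 ± 0.26. Testis and germ cell genes had 2 lower and 0 higher of 19 (median -0.08), Ldhc (-1.97 ± 0.21) and Ddx4 (-1.81 ± 0.32). Retina genes had 1 lower and 0 higher of 14 (median -0.10), the calcium sensor gene Rcvrn (-0.64 ± 0.16), which lost its call without WT mouse 3 or KO mouse 2 or 3 (adjusted p 0.0602 to 0.0801). Cornified epidermis had 3 lower and 0 higher of 19 (median -0.46), and 17 of the 19 had a negative difference, and without KO mouse 4 there were 5 lower. With the block 10 were lower in the cornified epidermis, 4 among testis and germ cell genes and 3, with 1 higher, in the retina. For the retina and germ cell lists the shares were close to the 7.48% over all genes.

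**Figure D2:**
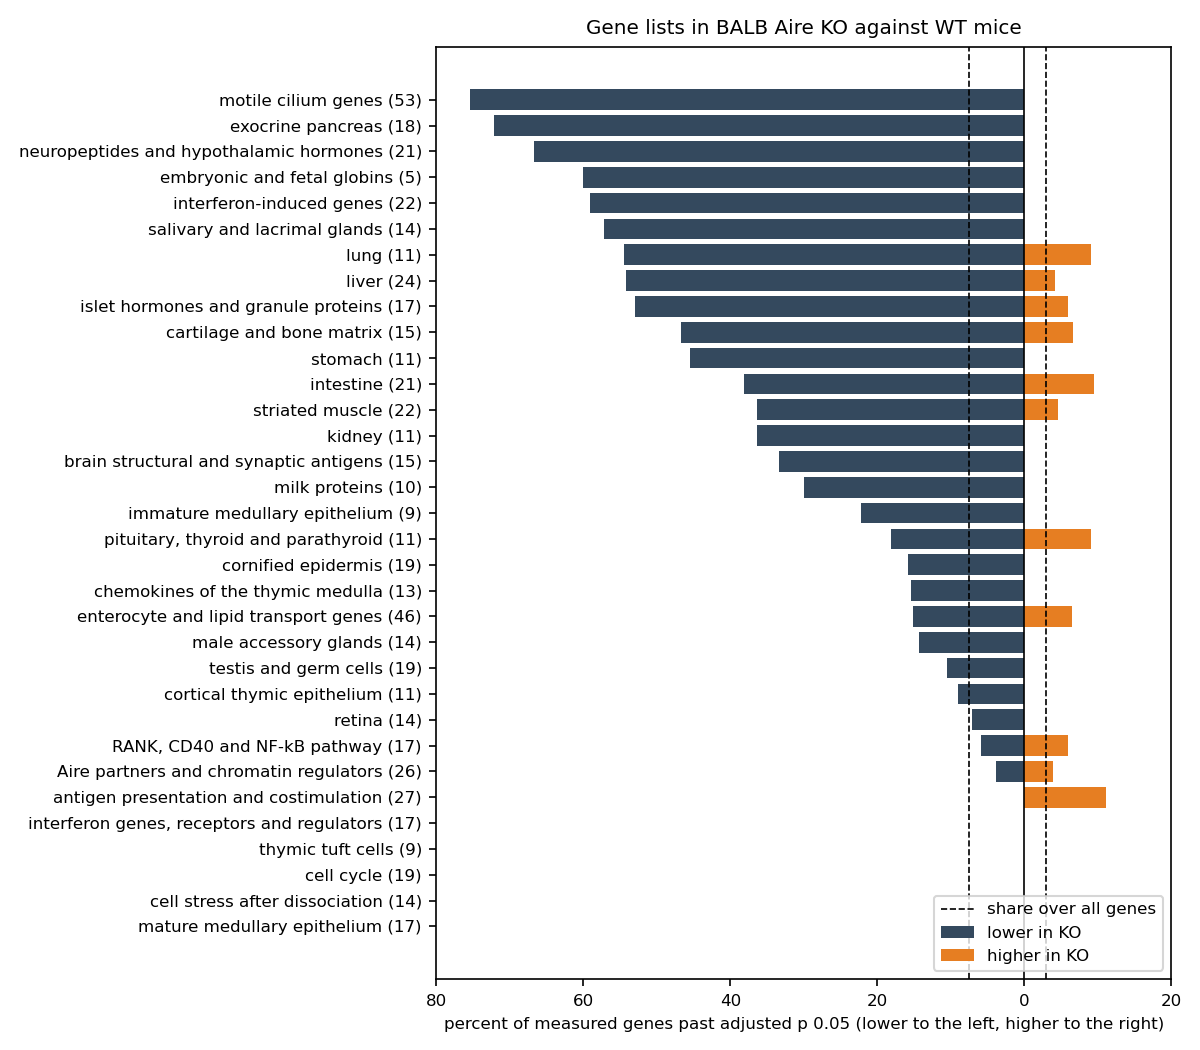
Percent of the measured genes of each list that were lower (dark bars, to the left) or higher (orange bars, to the right) in BALB KO mice than in BALB WT mice at an adjusted p under 0.05, with the number measured in brackets. Dashed lines mark 7.48% lower and 2.89% higher over all genes. Motile cilium genes, a list written after values were seen, and exocrine pancreas and neuropeptide genes have the longest bars, and mature medullary epithelium, cell cycle and cell stress genes have none.

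Genes that interferons induce were lower as well. Interferons signal through receptors and STAT proteins to promoter elements, which have GAAA and again GAAA with 2 bases of any kind between them, and the targets include antiviral proteins. Of 22 measured targets 13 were lower and 0 higher, 20 had a negative difference, and the median was -0.58. The count was 7 without KO mouse 1 and 6 without KO mouse 3. Ifit3, which restrains viral RNA, read 7.25, 8.37, 7.04 and 7.82 in KO mice and 9.06, 9.71, 9.04 and 9.56 in WT mice. Rsad2, the antiviral enzyme viperin, read 9.70, 10.05, 9.84 and 10.88 in KO mice and 11.30, 11.60, 11.36 and 11.88 in WT mice. No KO mouse reached a WT mouse for either gene, and in Rsad2 mice 4 were the highest in both genotypes. Gbp3, a guanylate-binding protein, read 9.12, 9.87, 9.06 and 9.12 in KO mice and 10.63, 10.90, 10.41 and 10.51 in WT mice. Differences were -1.72 ± 0.35 (adjusted p = 0.00384), -1.42 ± 0.24 (adjusted p = 0.000952) and -1.32 ± 0.25 (adjusted p = 0.00269), and Cxcl9, a chemokine that draws activated T cells, differed by -1.09 ± 0.18.

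The fall was seen in each pair of mice and did not extend to all targets. The median over the 22 genes was -0.61 in pair 1, -0.43 in pair 2, -0.80 in pair 3 and -0.52 in pair 4. Cxcl10 (0.13 ± 0.27) and Ifit1 (0.26 ± 0.15) did not pass and had positive differences, and Usp18 (-0.02 ± 0.11) did not pass either. Of 17 interferon, receptor and regulator genes 0 were lower and 0 higher by limma (3 at an unadjusted p under 0.05, median -0.03, and 1 lower and 2 higher with same-numbered mice as a block), where Ifng, a T and NK cell cytokine, had -1.07 ± 0.42 and Irf8 0.78 ± 0.28. In the other strains the medians of the 22 targets were -0.71 in B6 and -0.80 in NOD, and 0 of them differed in BALB from the other strains. Markers of dendritic cells and macrophages, cells that also express such genes, had 1 lower, Cd14 (-1.05 ± 0.22), and 0 higher of 14 (2 lower without WT mouse 3, and 2 lower and 2 higher with the block). Their mean level ranged from 7.38 to 8.26 in KO mice and from 7.62 to 8.22 in WT mice, with KO and WT mice 3 lowest in their groups. Their part in the fall was not tested.

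Promoters of these targets show the element. RefSeq promoter windows of 300 bases (GRCm38.p6, the B6-derived reference, 250 before to 50 after the annotated start) were matched by symbol for 17 of the 22 genes, and 11 of 17 held the element on either strand (64.7%), against 3.02% of 14452 measured genes with a window. Of the 13 lower genes 8 held it (61.5%). It also stood in the promoters of Cxcl10 and Ifit1, which were not called. The windows of Ifit3 and Rsad2 are printed because these were the targets with the largest falls. Capitals mark the element, here on the opposite strand, where it reads TTTC, 2 bases and TTTC.
Ifit3, chr19:34583279-34583578, plus strand: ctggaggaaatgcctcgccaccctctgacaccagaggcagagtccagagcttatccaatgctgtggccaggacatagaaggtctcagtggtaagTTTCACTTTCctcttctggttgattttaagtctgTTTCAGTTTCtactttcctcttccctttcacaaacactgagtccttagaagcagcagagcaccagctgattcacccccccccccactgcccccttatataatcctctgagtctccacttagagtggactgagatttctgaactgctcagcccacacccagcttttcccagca
Rsad2, chr12:26456403-26456702, minus strand: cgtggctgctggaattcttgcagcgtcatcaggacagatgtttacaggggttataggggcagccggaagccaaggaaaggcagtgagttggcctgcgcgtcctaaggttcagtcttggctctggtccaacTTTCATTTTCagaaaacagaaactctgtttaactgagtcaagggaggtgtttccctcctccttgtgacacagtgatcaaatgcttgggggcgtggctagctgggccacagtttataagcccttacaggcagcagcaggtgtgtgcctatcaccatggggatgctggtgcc

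**Figure D3:**
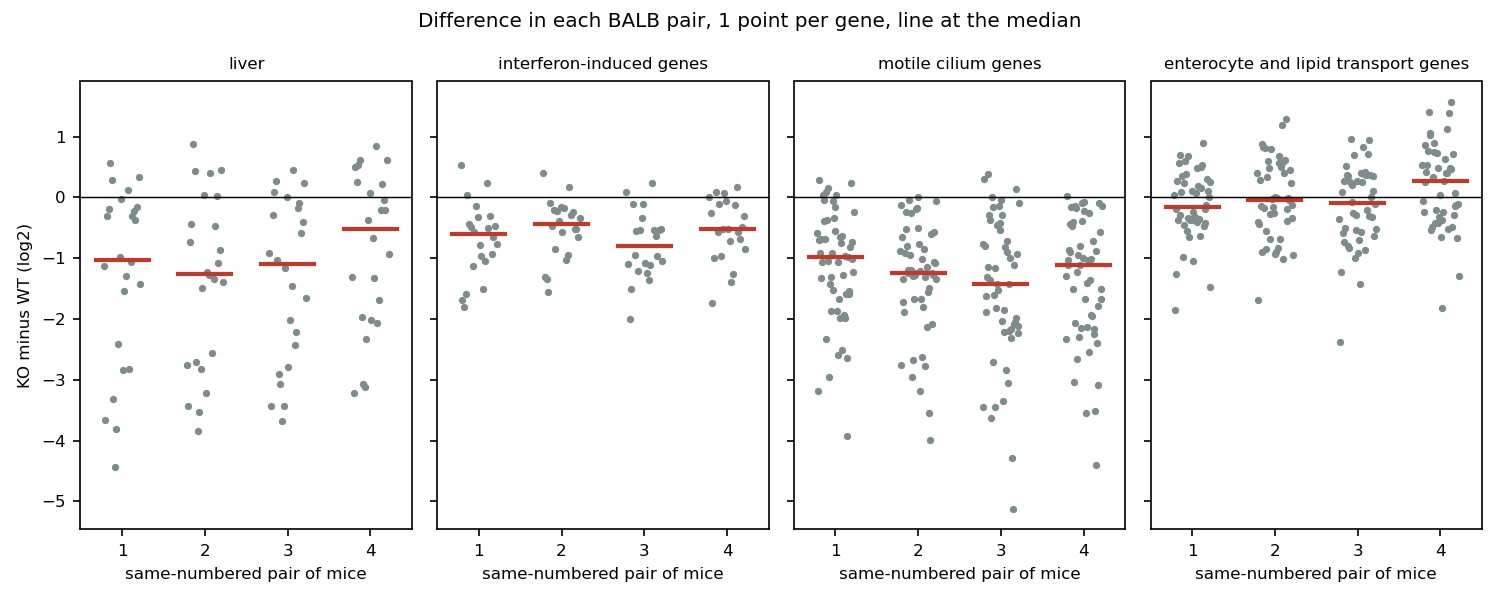
Difference of KO minus WT (log2) within each same-numbered pair of BALB mice for genes of 4 lists, 1 grey point per gene, with a red line at the median of the list. Liver, interferon-induced and motile cilium genes have a negative median in every pair, while the enterocyte and lipid transport genes have medians between -0.16 and 0.27.

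Genes of motile cilia were lower in BALB KO mice. Motile cilia beat on the airway, the oviduct and the brain ventricles. They are built on an axoneme of microtubules with dynein arms and radial spokes, under the transcription factors Foxj1 and RFX. Of 53 measured genes of such cilia 40 were lower in BALB KO mice and 0 higher, and 43 had no KO mouse reaching a WT mouse, a pattern that 9.31% of all genes showed. The list was written after values were seen. Among its 45 genes not seen at that time 32 were lower and 0 higher, with a median of -1.18, and 35 had no KO mouse reaching a WT mouse. The mean level over the 53 genes lay between 5.79 and 5.82 in the 4 KO mice and between 6.94 and 7.33 in the 4 WT mice.

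Regulators of ciliated cells were among the lower genes. Foxj1 read 5.78, 5.58, 5.66 and 5.72 in KO mice and 6.36, 6.47, 6.42 and 7.01 in WT mice, a difference of -0.88 ± 0.15 (adjusted p = 0.000677). Ccno, a cyclin-like protein needed for cells with many cilia, read 4.76, 5.55, 4.75 and 5.15 in KO mice and 7.94, 8.31, 8.20 and 7.48 in WT mice, and differed by -2.93 ± 0.22. Rfx3 differed by -0.80 ± 0.15 (adjusted p = 0.00211), while Rfx2 did not pass (0.12 ± 0.11). Another probe set of Rfx3 showed no fall (0.09, adjusted p = 0.681). Radial spoke genes came next. Rsph1 read 5.88, 6.33, 6.26 and 6.37 in KO mice and 8.84, 9.28, 9.71 and 9.02 in WT mice. Rsph4a read 5.28, 4.70, 5.49 and 5.65 in KO mice and 7.15, 7.36, 7.30 and 7.94 in WT mice. All KO mice lay more than a whole unit below all WT mice for both, and Rsph9 (-1.38 ± 0.11) and the spoke component Lrrc23 (-2.57 ± 0.23) were lower as well. Hoatz read 4.54, 4.68, 4.55 and 4.61 in KO mice and 8.46, 8.67, 9.67 and 9.01 in WT mice, the KO mice within a narrow band. Tektins, filament proteins of the axoneme, were lower by -1.31 ± 0.19 for Tekt1, -1.24 ± 0.16 for Tekt4 and -1.22 ± 0.16 for Tekt2. Of the dynein heavy chain genes Dnah1 passed (-1.01 ± 0.14), while Dnah11 (-0.40 ± 0.14), Dnah9 (-0.34 ± 0.16) and Dnah5 (-0.06 ± 0.12) did not. Another probe set of Dnah1 showed no fall (0.13, adjusted p = 0.664). Genes of this list outside the leading and strain-difference genes were chosen after their values were seen.

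The letters GTTGCC make up 1 arm of the X-box, the element bound by RFX factors. They were found on either strand in 20 of 44 cilium gene promoters (45.5%), against 12.8% of all 14452 windows, and in 17 of the 32 whose gene was lower (53.1%). Rfx2, Hydin and Iqca held it and were not called. The windows of Fam183b, Ccno and Lrrc23 are printed, the cilium genes with the largest falls among those that held the letters. Capitals mark GTTGCC or, on the opposite strand, GGCAAC.
Fam183b, chr11:58801911-58802210, minus strand: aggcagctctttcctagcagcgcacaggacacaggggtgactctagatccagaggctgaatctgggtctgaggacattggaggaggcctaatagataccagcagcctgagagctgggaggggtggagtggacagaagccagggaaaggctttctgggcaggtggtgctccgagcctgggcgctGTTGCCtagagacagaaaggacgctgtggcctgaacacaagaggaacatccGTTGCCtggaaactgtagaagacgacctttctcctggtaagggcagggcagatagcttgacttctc
Ccno, chr13:112987552-112987851, plus strand: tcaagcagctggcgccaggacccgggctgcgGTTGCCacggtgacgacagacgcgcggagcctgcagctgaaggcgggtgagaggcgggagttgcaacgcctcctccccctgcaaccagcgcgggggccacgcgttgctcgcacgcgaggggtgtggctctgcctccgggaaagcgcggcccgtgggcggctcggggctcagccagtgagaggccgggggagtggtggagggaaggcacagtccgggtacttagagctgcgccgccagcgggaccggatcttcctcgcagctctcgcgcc
Lrrc23, chr6:124779678-124779977, minus strand: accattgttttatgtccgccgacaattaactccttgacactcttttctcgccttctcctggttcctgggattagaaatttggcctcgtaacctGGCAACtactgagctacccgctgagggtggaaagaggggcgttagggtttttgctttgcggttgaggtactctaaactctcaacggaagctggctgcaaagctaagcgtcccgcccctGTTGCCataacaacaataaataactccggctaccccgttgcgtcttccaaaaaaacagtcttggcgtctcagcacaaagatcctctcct

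Across strains some cilium genes fell more in BALB, and the strains also lay mostly in different runs of sample codes, described below. Strain differences were among the values seen before the list was written, so counts are given for the 45 genes not seen. Their median difference was -1.18 in BALB, -0.60 in B6 and -0.46 in NOD, and the BALB effect was more negative than the mean of the other effects for 43 of 45 and than each of them for 37. The shares of all genes with these signs were not counted, so no background stands beside these counts. The test of the difference itself passed for 1 of the 45, Rsph9, and for 6 of the 8 seen, and, over all genes, for 19 with a more negative BALB effect (0.104%) and 28 with a more positive one (0.154%), or 30 (0.0666%) and 54 (0.12%) as probe sets. Fam183b had the largest such difference. It read 6.32, 6.18, 5.54 and 5.90 in BALB KO mice and 8.96, 9.73, 9.83 and 9.42 in BALB WT mice, 6.08, 6.14 and 6.10 in B6 KO mice and 7.97, 7.32 and 7.99 in B6 WT mice, and 6.90, 6.36 and 6.23 in NOD KO mice and 7.63, 8.37 and 8.51 in NOD WT mice. KO means were 5.99 in BALB, 6.11 in B6 and 6.50 in NOD, and the WT mice of BALB were the highest of any group. The effect was more negative in BALB by -1.83 ± 0.30 (SE, adjusted p = 0.0118), which lost its call without the B6 arrays (adjusted p = 0.0769). Rsph4a also had its highest WT mean in BALB. Its means were 5.28 in BALB KO mice and 7.44 in BALB WT mice, 5.26 in B6 KO mice and 5.997 in B6 WT mice, and 5.32 in NOD KO mice and 5.89 in NOD WT mice (-1.51 ± 0.25, adjusted p = 0.0143, and 0.0572 without the B6 arrays).

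Further members past that test were Rsph1 (-1.61 ± 0.23), Efcab1 (-1.40 ± 0.22), which docks dynein arms, Nme5 (-1.32 ± 0.23), Cfap69 (-1.31 ± 0.22) and Rsph9 (-0.89 ± 0.14). Rsph1 averaged 6.21 in BALB KO mice and 9.21 in BALB WT mice, 6.84 in B6 KO mice and 8.54 in B6 WT mice, and 6.72 in NOD KO mice and 7.81 in NOD WT mice. A second probe set of Efcab1 passed the same test (adjusted p = 0.0362), and the other one showed no fall in BALB (0.26, adjusted p = 0.116). The other probe sets of Cfap69 were not called in BALB (0.11, adjusted p = 0.642, and -0.04, adjusted p = 0.901) and did not pass the test of the difference. Cilium-related genes outside the list were among the 19 too, namely Cfap161 (-1.02 ± 0.17) and Cfap206 (-0.92 ± 0.16). With same-numbered mice as a block, 602 probe sets in all passed the test of a strain difference, against 84 (0.187%) without it.

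**Figure D4:**
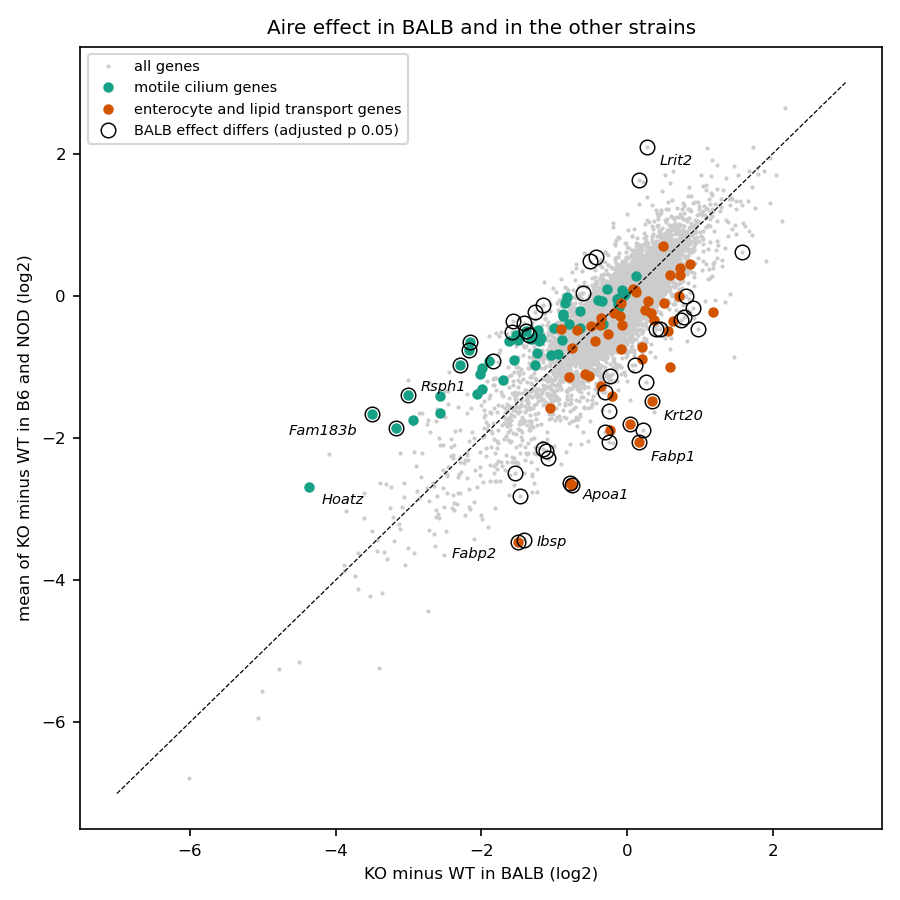
KO minus WT difference in BALB (x axis, log2) against the mean of the differences in B6 and NOD (y axis, log2), 1 point per gene, with the dashed line at equality. Motile cilium genes (green) lie mostly to the left of the line, where the fall is larger in BALB, and enterocyte and lipid transport genes (orange) mostly to the right, and circles mark the 47 genes past the test of a difference.

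Some fat-handling genes of the small intestine differed between strains in the opposite direction. Enterocytes take up fatty acids with the binding proteins Fabp1 and Fabp2 and export them with apolipoproteins. Fabp1 read 8.91, 9.17, 8.30 and 9.23 in BALB KO mice and 8.88, 8.76, 8.65 and 8.69 in BALB WT mice, 7.84, 7.68 and 7.91 in B6 KO mice and 9.07, 9.06 and 10.28 in B6 WT mice, and 5.77, 6.43 and 6.15 in NOD KO mice and 8.37, 8.73 and 8.62 in NOD WT mice. The genotypes overlapped in BALB (0.16 ± 0.24) and were apart in B6 and in NOD, and the effects differed by 2.22 ± 0.31 (adjusted p = 0.00344). Its other probe set differed by 2.46 (adjusted p = 0.0132). Fabp2 did fall in BALB, with 7.28, 7.70, 7.51 and 9.04 in KO mice and 9.13, 9.39, 9.88 and 9.09 in WT mice (-1.49 ± 0.27, adjusted p = 0.00181). KO mouse 4 stood close to the WT mice there. In B6, Fabp2 read 5.998, 6.08 and 6.02 in KO mice and 9.78, 9.45 and 9.94 in WT mice, and in NOD 5.31, 5.71 and 5.39 in KO mice and 8.80, 8.56 and 8.73 in WT mice. The difference between effects was 1.97 ± 0.35 (adjusted p = 0.0217), which left the threshold when BALB WT mouse 1, 2 or 4 was left out (adjusted p 0.0542 to 0.0596) and without the B6 arrays (adjusted p = 0.299), and with 16 units added before log2 (adjusted p = 0.0635).

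Cyp3a11, a drug-metabolising enzyme of liver and gut, read 7.72, 7.80, 8.29 and 8.12 in BALB KO mice and 8.12, 8.48, 7.46 and 7.73 in BALB WT mice, against effects of -1.84 in B6 and -1.78 in NOD. Its BALB effect was -0.54 in mice 1 and 2 and 0.62 in mice 3 and 4, which lay in different runs of sample codes. The difference of 1.16 ± 0.30 between these runs did not pass. Gstm3, a glutathione transferase, read 8.50, 8.04, 8.29 and 8.46 in BALB KO mice and 9.13, 9.05, 9.16 and 8.97 in BALB WT mice, against effects of -2.62 in B6 and -2.69 in NOD. For Gstm3 the WT mice of BALB averaged 9.08, those of B6 10.59 and those of NOD 11.02, so the strains differed in the WT level. Apoa1, the main protein of high-density lipoprotein, differed by -0.78 ± 0.21 in BALB, -2.61 in B6 and -2.65 in NOD (1.84 ± 0.27, adjusted p = 0.0043), and 2 of its 3 other probe sets passed the same test. The list of 46 enterocyte and lipid transport genes, written after values were seen, had 7 lower and 3 higher in BALB with a median of -0.02 (4 lower without WT mouse 3, 5 higher without WT mouse 4, and 14 lower and 12 higher with same-numbered mice as a block). Among its 40 genes not seen at that time 4 were lower and 3 higher, with medians of 0.008 in BALB, -0.49 in B6 and -0.11 in NOD. The effect was more positive in BALB than the mean of the others for 33 of the 40, and 0 of them passed the test of the difference, while the 6 seen did. The share of all genes with such a sign was not counted.

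KO mouse 4 carried more of this group than the other KO mice. The mean level over the 46 genes was 7.70, 7.69, 7.55 and 8.06 in KO mice and 7.83, 7.71, 7.70 and 7.88 in WT mice. Apoa1 read 7.54, 8.07, 7.50 and 8.57 in KO mice and 8.80, 8.47, 8.73 and 8.82 in WT mice. Krt20, a keratin of the gut surface, read 10.85, 10.79, 10.70 and 11.51 in KO mice and 10.76, 10.96, 10.34 and 10.45 in WT mice. Mouse 4 was the highest KO mouse for both genes. Genes of the list that rose in BALB were Tm4sf20 (1.18 ± 0.25), the intestinal cadherin gene Cdh17 (0.73 ± 0.20) and Guca2b (0.51 ± 0.12), which encodes uroguanylin.

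Genes outside both groups also differed between strains. Cst9, a cystatin, read 6.12, 5.86, 5.93 and 5.91 in BALB KO mice and 6.06, 5.09, 5.75 and 6.02 in BALB WT mice, and effects were -2.37 in B6 and -1.40 in NOD (2.11 ± 0.32, adjusted p = 0.00633, and 0.161 without the B6 arrays). WT means of Cst9 were 5.73 in BALB, 7.80 in B6 and 7.08 in NOD, and KO means were 5.95, 5.44 and 5.68. The strains thus differed mainly in the WT level. Ibsp, a sialoprotein of bone, read 5.85, 5.60, 6.09 and 5.79 in BALB KO mice and 7.46, 7.67, 6.66 and 7.20 in BALB WT mice, against effects of -3.37 in B6 and -3.50 in NOD. Its difference of 2.02 ± 0.36 (adjusted p = 0.0208) lost its call without WT mouse 3, KO mouse 1 or KO mouse 3 (adjusted p 0.053 to 0.0591), and a second probe set of Ibsp did not show it (-0.42, not past the threshold). With 16 units added before log2 the difference was 1.31 and did not pass (adjusted p = 0.112). Lrit1 and Lrit2 encode leucine-rich membrane proteins known from the retina. Lrit2 read 3.99, 3.88, 3.81 and 3.72 in BALB KO mice and 3.94, 3.45, 3.74 and 3.16 in BALB WT mice, 5.14, 5.72 and 6.02 in B6 KO mice and 3.72, 3.57 and 3.67 in B6 WT mice, and 5.78, 5.77 and 5.97 in NOD KO mice and 3.75, 3.45 and 3.67 in NOD WT mice. Lrit1 read 4.83, 5.09, 4.70 and 4.38 in BALB KO mice and 4.95, 4.79, 4.39 and 4.20 in BALB WT mice, against effects of 1.69 in B6 and 1.58 in NOD. The BALB genotypes overlapped for both genes, and the effects differed by -1.82 ± 0.22 and -1.46 ± 0.20. All BALB values of Lrit2 lay near the bottom of the scale, whose lowest 5% ended at 3.78. A lack of effect and a lack of signal cannot be told apart there. Hbegf, a growth factor of the EGF family, rose in BALB (0.97 ± 0.13) and had effects of -0.43 in B6 and -0.50 in NOD (1.43 ± 0.17, adjusted p = 0.00106), while Chga had effects of 0.90 in BALB, -0.81 in B6 and 0.47 in NOD (1.07 ± 0.14, adjusted p = 0.00344).

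**Figure D5:**
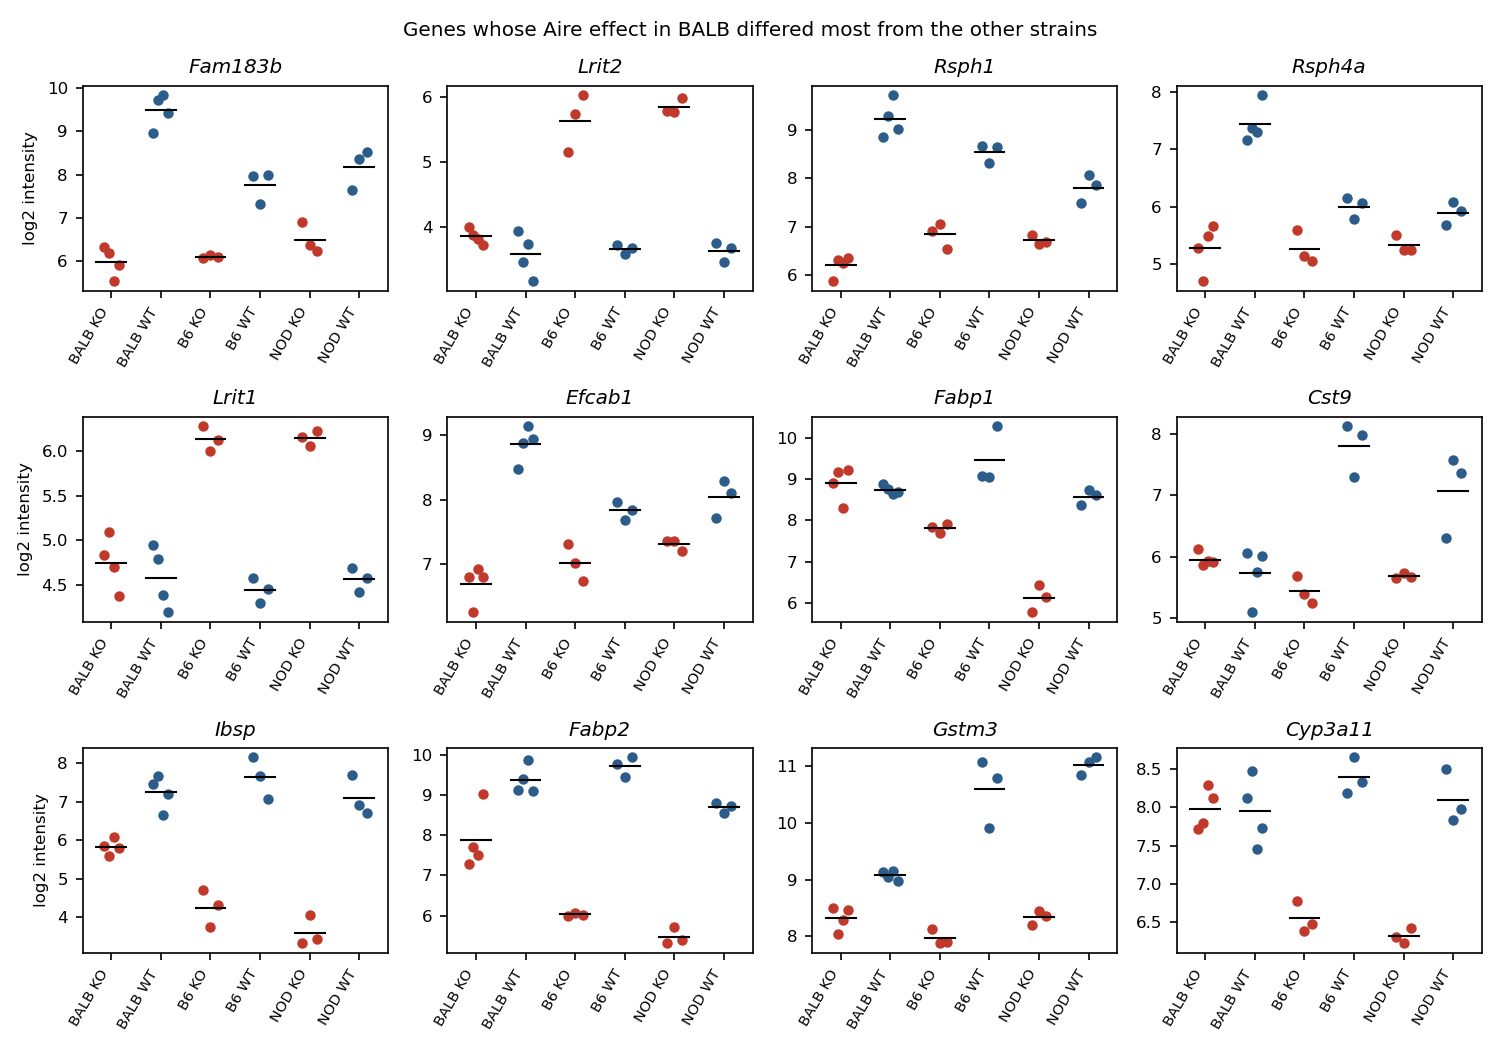
Log2 intensity in every mouse for the 12 genes whose BALB effect differed most from the other strains, KO mice in red and WT mice in blue, with lines at group means. Fam183b, Rsph1, Rsph4a and Efcab1 have their highest WT mean in BALB, Lrit1 and Lrit2 are high in KO mice of B6 and NOD, and Fabp1, Cst9 and Cyp3a11 differ between genotypes in B6 and NOD. For Cst9 the BALB WT mean lies below the WT means of B6 and NOD.

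Lists of genes that mark thymic epithelium were short, and over all genes 7.48% were lower and 2.89% higher. Of 17 mature medullary genes 0 were lower and 0 higher by limma (2 at an unadjusted p under 0.05, median 0.08), and with same-numbered mice as a block 1 was lower and 2 higher. Immature medullary genes had 2 lower, the keratin gene Krt15 (-1.30 ± 0.17) and Pdpn (-0.60 ± 0.15), and 0 higher of 9 (median -0.31, and 5 lower with the block). Pdpn lost its call without WT mouse 2 or KO mouse 1 or 2 (adjusted p 0.0637 to 0.0871). For cortical epithelium 1 of 11 was lower and 0 higher (median -0.0016, and 3 and 2 with the block). This gene was Enpep, which encodes the Ly51 antigen of the sorting gate, with 7.96, 7.52, 7.60 and 7.23 in KO mice and 9.27, 8.96, 9.05 and 8.47 in WT mice (-1.36 ± 0.17). The groups were separate. In the list of gate markers Enpep was thus the 1 lower gene, and the class II chain gene H2-Ab1 the 1 higher gene (0.30 ± 0.09, adjusted p = 0.0411), of 11. The rise of H2-Ab1 lost its call without KO mouse 1, 2 or 3 or WT mouse 1, 2 or 4 (adjusted p 0.0696 to 0.109). With the block 3 gate markers were lower and 4 higher. Both genes belong to the sort itself, and the part of the gate in their differences was not tested.

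Antigen presentation genes had 0 lower and 3 higher of 27 (median 0.18), namely Ctla4, H2-Ab1 and H2-Oa (0.81 ± 0.19), a chain of a class II loading regulator, and with the block 1 lower and 9 higher. Among Aire partners and chromatin regulators 1 of 26 was lower and 1 higher (median -0.02), the Dnmt3 genes given above, and with the block 4 were lower and 3 higher. In the RANK, CD40 and NF-kB list 1 of 17 was lower and 1 higher (median 0.04). The lower gene was Tnfsf11, the RANK ligand, with 4.87, 4.49, 4.98 and 4.94 in KO mice and 6.28, 5.49, 5.80 and 6.53 in WT mice (-1.21 ± 0.20), and the higher one the adaptor gene Traf6 (0.66 ± 0.14), with 2 lower and 3 higher under the block. Chemokines of the medulla had 2 lower, Cxcl9 and Xcl1, and 0 higher of 13 (median -0.46), and Xcl1 lost its call without WT mouse 1 or 2 or KO mouse 1, 2 or 3 (adjusted p 0.0646 to 0.113), while with the block 7 were lower and 1 higher. Cell cycle genes depended on the pairing. By limma 0 of 19 were lower and 0 higher without it (3 at an unadjusted p under 0.05, median -0.41), while 9 were lower and 0 higher with the block, and 7 were lower without WT mouse 4. Their mean level was 7.88, 8.28, 8.09 and 7.32 in KO mice and 8.42, 8.61, 8.58 and 7.46 in WT mice, lower in the KO mouse of each pair and lowest in mice 4 of both genotypes. With the mean of all probe sets of a gene the median was -0.25. Among 9 tuft cell genes (median -0.18) and 14 genes of cell stress after dissociation (median -0.11) 0 passed in either direction by limma, 0 and 1 at an unadjusted p under 0.05, and 1 was lower in each list with the block.

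Markers of other cells were called in part. B cell markers had 0 lower and 1 higher of 8, the complement receptor gene Cr2, with 10.05, 10.37, 10.09 and 10.21 in KO mice and 8.40, 8.64, 8.72 and 8.32 in WT mice (1.66 ± 0.25). The mean level of the 8 was between 7.84 and 8.33 in KO mice and between 7.60 and 8.08 in WT mice. Fibroblast markers had 2 lower, the collagen genes Col1a1 (-0.89 ± 0.14) and Col1a2 (-0.86 ± 0.15), and 2 higher, Dcn and Lum, of 9, with mean levels of 7.19 to 7.42 in KO mice and 7.23 to 7.62 in WT mice. Lum lost its call without WT mouse 3 or KO mouse 1 or 2 (adjusted p 0.0557 to 0.0818). Endothelial markers had 2 lower, Cd34 (-1.65 ± 0.22) and Vwf (-1.16 ± 0.19), and 0 higher of 9, with mean levels of 5.79 to 5.91 in KO mice and 5.99 to 6.28 in WT mice, ranges that did not overlap. Red blood cell markers had 0 called of 4 by limma (0 at an unadjusted p under 0.05), beside the fall of the embryonic globins, with mean levels of 5.87 to 6.16 in KO mice and 5.93 to 6.08 in WT mice. The part of such cells in the changes was not tested.

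Lower genes often lay next to each other. Of 577 genes at least 2-fold lower with a known position, 124 (21.5%) had an adjacent measured gene that was also at least 2-fold lower, against 6.11% of all genes with a position. Among 96 genes at least 2-fold higher, 6 had such a neighbour (6.25%), against 1.05% of all genes. The lower neighbours formed 3 rows of 4 genes, 6 rows of 3 and 47 pairs. One row held the kallikrein genes Klk7, Klk6, Klk5 and Klk4 (-1.16, -1.59, -1.15 and -1.27), another the acute phase genes Saa3, Saa4, Saa1 and Saa2 (-1.88, -1.01, -2.47 and -1.57). The fibrinogen genes Fgg, Fga and Fgb (-3.53, -2.72 and -3.60) stood side by side, as did the chemokine genes Cxcl5, Ppbp and Pf4 (-2.47, -2.22 and -1.54). Related neighbours can share probe sequence, so their values may not be separate measurements. Some neighbours were of different families, such as Ins2 and Th, the gene of the first enzyme of catecholamine synthesis (-1.14 and -1.63).

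Promoters of the lower genes differed from the rest in composition. The windows of 460 genes at least 2-fold lower held a median of 5 CpG dinucleotides, those of 77 genes at least 2-fold higher 9, and those of all 14452 genes 17. The letters TATAAA, the core of a TATA box, occurred on either strand in 26.5% of the lower genes, 16.9% of the higher genes and 9.87% of all. Within the cilium list TATAAA stood in 6.82% of the windows, below the share over all genes, and the median was 12 CpG.

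Sample codes in the labels place BALB mice 1 and 2 of both genotypes in 1 run of numbers and mice 3 and 4 in another. Levels of 2853 probe sets (6.33%) differed between these runs over both genotypes, and the log2 difference between 3' and 5' probe sets of Gapdh was 2.24 to 2.44 in mice 1 and 2 and 2.72 to 3.04 in mice 3 and 4. The KO effect was called for 1724 probe sets within mice 1 and 2 (3.83%) and for 1111 within mice 3 and 4 (2.47%), and 638 were lower in both. The effect itself differed between runs for 1 probe set (0.00222%), that of S100a7l2, an S100 calcium-binding protein gene. It read 4.03, 3.88, 3.98 and 4.10 in KO mice and 6.41, 6.42, 4.62 and 4.39 in WT mice. The KO mice were alike, and WT mice 1 and 2 were higher than WT mice 3 and 4. Its effects differed by 1.995 between runs. With all arrays 1093 probe sets had an unadjusted p under 0.05, and 0 passed the adjusted threshold with the BALB arrays alone. B6 mice 2 and 3 lay in another run, and NOD mice 2 and 3 in a further one. B6 KO mouse 1 and both NOD mice 1 shared the run of BALB mice 3 and 4, and B6 WT mouse 1 had no code. That mouse had the highest Gapdh difference of the series, 3.76, against 1.90 and 2.31 in the other B6 WT mice. No B6 or NOD mouse was left out singly, and the part of runs in the strain differences was not tested.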

How the data were processed

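Gene expression was measured with an Affymetrix mouse array in sorted medullary thymic epithelial cells. Per the labels' protocols, RNA was amplified in a pair of rounds before biotin labelling, a step that can favour 3' ends. The authors deposited 1 linear intensity per probe set and array, and per the submitters' processing notes these were made with RMA, while its version, its settings and the arrays normalized together are not stated there. RMA evens out array-wide shifts, and no background values were used, so folds of dim probe sets may be understated.

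Of 45101 probe sets 64 controls were left out, and log2 was taken of the other 45037. The 6 group means of all 20 arrays were fitted with limma 3.58.1 in R 4.3.3 (14 residual degrees of freedom), with contrasts for KO minus WT in BALB and for the BALB effect minus the mean of the B6 and NOD effects, and with the BALB groups split by run of sample codes for the difference between runs. P-values were adjusted by Benjamini-Hochberg over all probe sets (threshold 0.05). The annotation gave 1 symbol for 34945 probe sets, several for 932 and did not list 9160. Each gene is represented by the brightest single-symbol probe set over the 20 arrays, and neighbours follow the gene order of GRCm38.p6. For the 115 named genes, 36 of 66 other probe sets passed with the same sign and 0 passed with the opposite one.

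Named genes comprise Aire, 14 leading falls and 10 leading rises past the threshold without overlap, the 6 largest strain differences each way, genes whose effect differed between runs and up to 4 members per list. Members and lists were chosen with earlier results of these data known. Of 38 lists with 609 entries 560 were measured. Another 2 lists (motile cilia, enterocytes) were written after values were seen, and lists share some members.

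Same-numbered BALB mice deviated together from their group means (r 0.46 to 0.66 in the 4 pairs, against 0.11 to 0.26 for other mice of the same run and -0.59 to -0.20 across runs). Numbers were therefore taken as pairs for the differences per pair and in the alternative fits with a block. The main fit had no block, and counts, SEs and adjusted p-values are from it unless an alternative is named. List counts past the test of a strain difference are given without the block only. The alternatives were scaling, added units, dim probe sets left out, variance models, array weights, BALB arrays alone, blocks, fold limits and leaving out mice. Tested on simulated data of 45037 probe sets, the BALB contrast recovered 79 of 100 at a log2 change of 1 and 96 of 100 at 2, with 9 false calls. The simulated noise was independent between mice, without the pairs and runs of the real data, and far fewer probe sets were changed. These numbers may therefore not hold for the real data.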

Additional observations from a re-analysis of the deposited data

Results flagged for a closer look

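In 11 of 230 groups of 4 mice tested among the named genes, 1 mouse stood apart by Dixon's ratio of its gap to the range, about as many as the 1 in 20 that chance gives. Among KO mice, KO mouse 4 was high for Umod (6.51), Farp2 (8.02) and Tnnc2 (6.01), and KO mouse 2 was high for Pth (5.43), Hbb-bh1 (5.69) and Gbp3 (9.87). Among WT mice, WT mouse 4 was low for Aire (9.31), Ppy (8.04) and Nefl (8.42) and high for Iapp (12.74), and WT mouse 3 was high for Prss2 (10.60).

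Effects that differed between BALB and the mean of B6 and NOD past the adjusted threshold included Fam183b (-1.83), Lrit2 (-1.82), Rsph1 (-1.61), Rsph4a (-1.51), Lrit1 (-1.46) and Efcab1 (-1.40) with a more negative BALB effect. Fabp1 (2.22), Cst9 (2.11), Ibsp (2.02), Fabp2 (1.97), Gstm3 (1.90), Cyp3a11 (1.85) and the kallikrein gene Klk5 (1.01) had a more positive one. The effect on S100a7l2 in mice 3 and 4 minus that in mice 1 and 2 was 1.995.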

How the results depend on the processing

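Of 122 results for named genes, 100 kept direction and call under all of the 19 alternatives that gave them a value, 21 lost their call under at least 1, Aire gained one, and 0 reversed. Among the 24 leading falls and rises, 24 kept both under the alternatives that gave them a value. Leaving out dim probe sets left 22518 for testing, and 1816 probe sets were then changed in BALB, 622 at least 2-fold, with 45 differing from the other strains. The replicate block called 7787 changed and 602 strain differences, and with the BALB arrays alone 7185 changed, while array weights gave 208 strain differences. The replicate block changed no call among the named genes other than that of Aire, except that with the BALB arrays alone H2-Ab1 did not pass. A stricter fold limit left 209 probe sets, and with the BALB arrays alone 0 differed between runs. Leaving out 1 BALB mouse at a time gave 2288 to 3413 changed probe sets, 944 to 1065 at least 2-fold and 61 to 89 strain differences. The share of falls among called probe sets was 62.4%, and 50.03% with the replicate block. No scaling moved the median over all probe sets beyond 0.05. With the mean of all probe sets of a gene, the list medians not given above moved to -0.19 for male accessory glands, -0.20 for immature medullary epithelium, 0.02 for Aire partners and chromatin regulators and 0.10 for the RANK, CD40 and NF-kB list. The causes of these shifts were not tested. No detection calls were used, so falls to the bottom of the scale are limited by background.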
